A study of Mus musculus with 20 samples.

Results

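The genes described here are 3 xenobiotic-sensing receptors and the classic cytochrome P450 genes of their response, taken as the rows whose symbol is Nr1i2, Nr1i3, Ahr, Cyp1a2, Cyp2a4, Cyp2a5, Cyp2b9, Cyp2b10, Cyp2b13 or Por. All 10 were listed among 22298 genes in each of the 20 libraries, and all 10 passed the filter on low counts that left 12342 genes to test. The liver RNA came from male mice of the obese, diabetic Lepr db/db strain, whose leptin receptor does not signal, and every mouse received an AAV8 virus through the tail vein at 5 weeks of age. In the Vec group the virus carried a non-targeting shRNA and the mice were gavaged with the vehicle, CMC-Na, whereas Vec+BBR mice carried the same virus and received benzbromarone (BBR), a uricosuric drug, at 25 mg/kg once daily for 4 weeks. The shRNA group carried 4 shRNAs against Pparg in a single virus and received the vehicle, and the shRNA+BBR group combined this virus with BBR at 25 mg/kg. Each group held 5 separate mice, killed after a 6 h fast, so that the controls share the db/db genotype and an AAV8 virus, and lean or uninjected mice were not analysed here. The RNA was that of liver tissue, in which a smaller number of cells of a type and less RNA per cell cannot be told apart in any result below.

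Library totals ranged from 17432904 to 25024099 counts (median 21409860). Pparg, the targeted gene, lay between 16.4 and 35.9 CPM (counts scaled to library size) in Vec, 28 and 38.3 in Vec+BBR, 3.24 and 7.31 in shRNA and 7.19 and 21.8 in shRNA+BBR, and it was lower in each knockdown group than in its control (log2 fold change -2.12 ± 0.28 SE and -1.20 ± 0.26, edgeR adjusted p = 4.47e-05 and 0.00843). With BBR, Pparg was higher in knockdown mice (shRNA+BBR vs shRNA, log2 fold change 1.28 ± 0.28, edgeR adjusted p = 0.00773). In Vec mice it was not called (0.36 ± 0.26, adjusted p = 0.372). The 2 knockdown groups thus differed in remaining Pparg as well as in BBR. Among shRNA+BBR livers the remaining Pparg differed 3.04-fold. The tissue label was met by its markers, since 8 hepatocyte genes summed to between 90309 and 156042 CPM, whereas lists for lung, kidney, adipocytes and T and B cells each summed to at most 2.78 CPM in every liver. Lists for pancreas, small intestine and erythroid cells summed higher, to at most 5.73, 101 and 1578 CPM.

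Nr1i3 (CAR) and Nr1i2 (PXR) are nuclear receptors that pair with RXR and drive drug-metabolizing genes when a foreign compound, bile acid or steroid is sensed. CAR is held in the cytoplasm until activated and is best known in mouse liver for inducing Cyp2b10, and PXR is best known for Cyp3a11. Ahr encodes the aryl hydrocarbon receptor, which joins ARNT and induces Cyp1a1 and Cyp1a2. Cyp1a2 and Cyp2a5 are pericentral enzymes of the liver lobule, Cyp2a4 is a steroid 15-alpha-hydroxylase that is higher in female mice, Cyp2b9 and Cyp2b13 are also higher in females, and Por is the reductase that passes electrons from NADPH to all microsomal P450s. The receptors are activated by ligand binding and movement into the nucleus, which mRNA levels do not measure.

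Of the 10 genes, 5 lie in a single cluster of 946 kb on chromosome 7 (GRCm38, chr7:25897620-26843548, plus strand), in the order Cyp2b10, Cyp2b13, Cyp2b9, Cyp2a4 and Cyp2a5, each with 9 exons. The other 5 are spread over the genome: Nr1i2 on chr16:38248323-38294824 (minus strand, 9 exons), Nr1i3 on chr1:171213970-171220701 (plus strand, 7 exons), Ahr on chr12:35497974-35535038 (minus strand, 11 exons), Cyp1a2 on chr9:57676937-57683703 (minus strand, 7 exons) and Por on chr5:135670033-135735326 (plus strand, 16 exons). The library kit was not stated to keep strand, and Nr1i3 overlaps Tomm40l on the opposite strand, so that reads from the shared stretch cannot be assigned to either gene with certainty. Cyp2a4 likewise overlaps an antisense gene, Gm42375.

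The paralogs of the cluster are alike enough to share reads. The annotated transcripts of Cyp2a4 and Cyp2a5 were identical at 98.2% of 1739 aligned positions, and 11.2% of the 100-base windows of the Cyp2a4 transcript also occurred in that of Cyp2a5. For Cyp2b9 and Cyp2b13 the values were 89.3% and 1.2%, and no 100-base window was shared by Cyp2b10 with either of them. Counts of Cyp2a4 and Cyp2a5 were not whole numbers in 20 of 20 livers, as happens when a read is divided between genes, and the same held in 20 of 20 livers for Nr1i3, 19 for Cyp2b13, 18 for Cyp2b9, 8 for Cyp2b10, 2 for Cyp1a2 and 0 for Nr1i2, Ahr and Por. Single-gene levels of Cyp2a4, Cyp2a5, Cyp2b9 and Cyp2b13 are therefore uncertain, and sums over paralogs are given beside single genes.

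The sequences just upstream of the annotated starts are shown because these pairs differed in their expression while differing by a handful of bases. They are RefSeq sequences of GRCm38.p6, plus strand, 5′ to 3′, with the bases that differ within a pair in capitals. The Cyp2a4 stretch is chr7:26306942-26307168 and that of Cyp2a5 is chr7:26835089-26835304.
Cyp2a4: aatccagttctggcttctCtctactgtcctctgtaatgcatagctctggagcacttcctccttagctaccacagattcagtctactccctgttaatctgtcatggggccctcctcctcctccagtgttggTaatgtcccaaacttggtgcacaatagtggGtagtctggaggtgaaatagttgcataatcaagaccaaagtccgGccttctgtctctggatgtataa
Cyp2a5: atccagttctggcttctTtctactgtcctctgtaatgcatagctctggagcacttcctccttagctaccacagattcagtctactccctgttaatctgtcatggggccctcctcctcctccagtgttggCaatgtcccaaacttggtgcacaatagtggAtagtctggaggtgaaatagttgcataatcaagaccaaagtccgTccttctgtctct
Over 216 aligned bases they were 98.1% identical, with 4 substitutions counted from the first base shown for Cyp2a4: C19T, T131C, G161A and G205T. The stretches of Cyp2b9 (chr7:26173159-26173408) and Cyp2b13 (chr7:26061245-26061494) were 99.2% identical over 250 bases, with T48C and C104T counted from the first base shown for Cyp2b9.
Cyp2b9: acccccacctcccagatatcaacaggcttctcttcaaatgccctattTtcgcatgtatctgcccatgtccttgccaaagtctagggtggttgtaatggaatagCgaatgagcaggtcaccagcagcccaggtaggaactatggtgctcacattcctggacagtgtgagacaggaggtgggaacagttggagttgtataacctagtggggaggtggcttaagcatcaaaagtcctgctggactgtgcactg
Cyp2b13: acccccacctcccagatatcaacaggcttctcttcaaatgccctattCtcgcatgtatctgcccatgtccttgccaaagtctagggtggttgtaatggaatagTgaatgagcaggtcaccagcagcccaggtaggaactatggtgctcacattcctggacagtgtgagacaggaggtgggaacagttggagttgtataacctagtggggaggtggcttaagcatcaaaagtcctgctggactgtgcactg
Cyp2b10 was 72.2% identical to either of these over 216 aligned positions. In the RefSeq windows from 250 bases before to 50 bases after the start, searched on both strands for 9 of the 10 genes (Ahr was not searched), the GCGTG core of the AhR-ARNT site occurred at 2 positions in Cyp2b10 and at 3 in Por and in none of the other 7, against 32.4% of 32851 mouse windows. None of the 9 held the D-box of PAR bZIP factors (TTATGTAA or TTACGTAA, 1.06% of windows), a DR4 of the CAR and PXR type (0.0274%), CAAAGTCCA of HNF4 (0.475%) or TTCNNNGAA of STAT5 (8.3%). These are letters in short windows and not sites of binding, and enhancers farther upstream were not searched.

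Per transcript length, Cyp2a5 was the most abundant of the 10 in every group and Ahr the least. In the deposited FPKM (fragments scaled to transcript length and library size), the Vec means ± SD (n = 5) were 1066 ± 441 for Cyp2a5, 454 ± 189 for Cyp1a2, 374 ± 126 for Por, 256 ± 35 for Cyp2b9, 131 ± 72.9 for Cyp2b13, 60.8 ± 9.11 for Nr1i3, 38.8 ± 13.2 for Cyp2b10, 35.1 ± 27.4 for Cyp2a4, 34.6 ± 8.47 for Nr1i2 and 3.41 ± 1.37 for Ahr. Neighbours in that order overlapped in range, except that every Cyp2b9 value lay above every Cyp2b13 value and every Nr1i2 value above every Ahr value. In Vec+BBR the order from the top was Cyp2a5, Cyp2b9, Por and Cyp1a2, at 422 ± 144, 348 ± 21.8, 217 ± 35.2 and 165 ± 38 FPKM, so that Cyp1a2 stood at rank 4 instead of rank 2, although its range overlapped that of Por. In shRNA livers Cyp2a5 (1063 ± 159 FPKM), Por (437 ± 29.8), Cyp1a2 (339 ± 33.1) and Cyp2b9 (239 ± 22.9) followed each other with no overlap between neighbours. The other classic AhR target, Cyp1a1, was close to silent, at 0.775 to 2.51 CPM over the 20 livers, and Cyp2b23 had no count in any library.

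**Figure D1:**
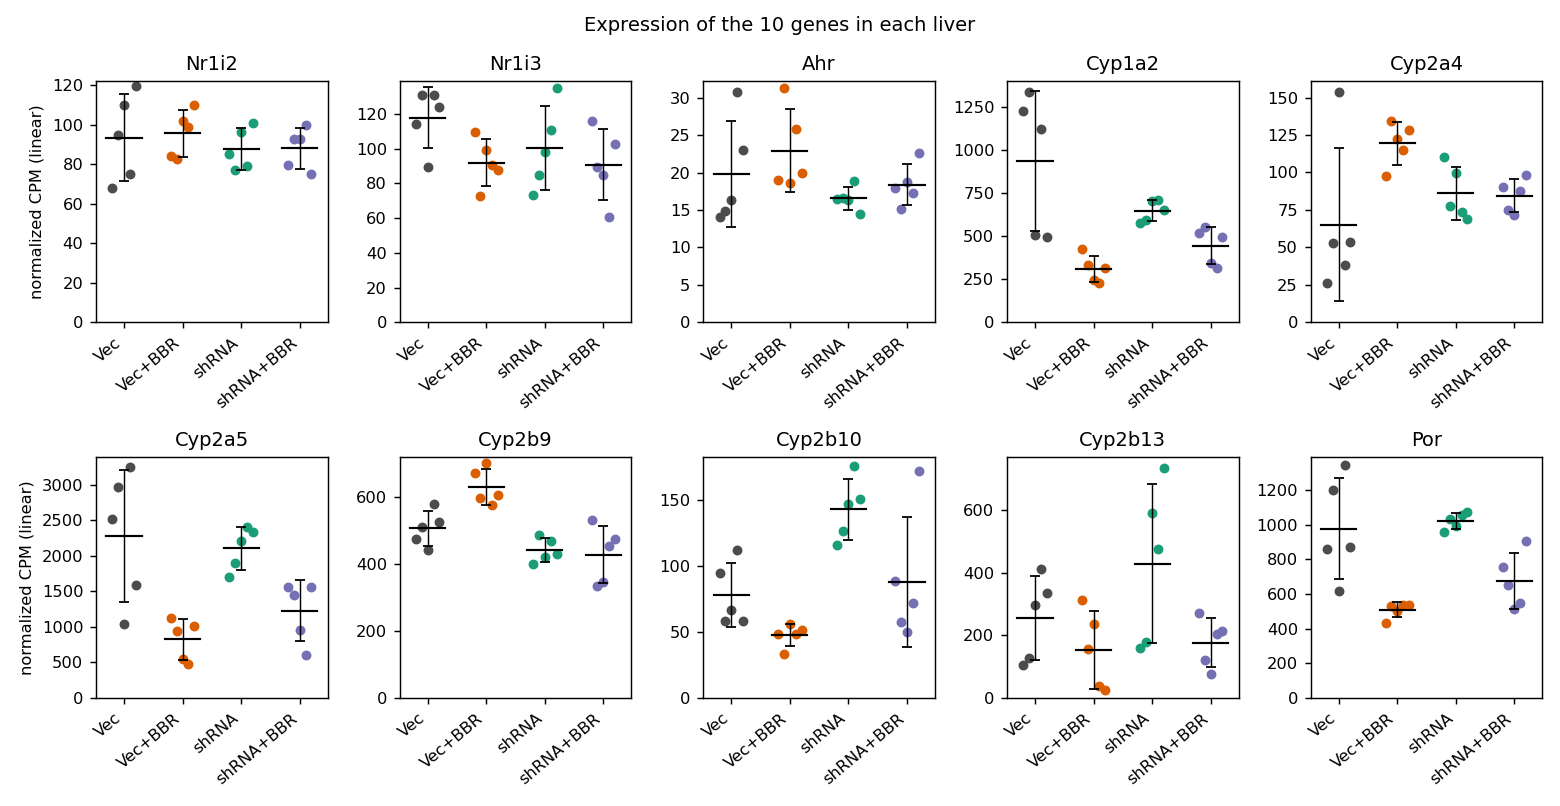
Normalized CPM on linear axes for each of the 10 genes, with 1 point per liver, the group mean as a horizontal bar and the SD as whiskers (n = 5 per group). Cyp1a2 and Por in Vec+BBR lie below every Vec liver, whereas the receptors Nr1i2, Nr1i3 and Ahr overlap between all groups.

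The first question was whether BBR changed these genes in mice with intact Pparg (Vec+BBR vs Vec). Cyp1a2, Cyp2a5 and Por fell, none of the 10 was called higher, and 7 did not pass the test (edgeR quasi-likelihood test, adjusted p under 0.05). Cyp2a4 and Cyp2b9 had positive log2 fold changes close to that threshold (adjusted p = 0.0534 and 0.0663). Among all 12342 genes, 15.5% were called in this comparison, 7.58% higher and 7.88% lower. No receptor was among those called, and the groups did not overlap for 3 of the 10 and for 8.94% of all genes.

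Cyp1a2, which oxidizes aromatic amines and caffeine, measured 1231, 1341, 508, 1124 and 495 CPM in the 5 Vec livers and 425, 334, 248, 229 and 315 CPM in the 5 Vec+BBR livers. The groups did not overlap, although Vec mice 3 and 5 lay well below the other Vec mice. The fitted log2 fold change was -1.60 ± 0.25 SE, that is 3.03-fold lower (edgeR adjusted p = 0.00046), and an exact permutation test, two-sided, reached p = 0.00794, which is as low as 5 against 5 livers can go (adjusted p = 0.0423 over 48 tests). Leaving out any mouse kept the log2 fold change between -1.76 and -1.44.

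Cyp2a5, the mouse coumarin 7-hydroxylase, measured 2513, 2966, 1044, 3252 and 1594 CPM in Vec and 1127, 947, 555, 477 and 1006 CPM in Vec+BBR. Only Vec mouse 3 fell inside the treated range, so that 4 of 5 Vec livers lay above all treated livers. The change was -1.47 ± 0.30 on the log2 scale, 2.77-fold lower (edgeR adjusted p = 0.00273), and the exact permutation test gave p = 0.0159, which did not pass after adjustment (0.0586). Mice 3 and 5 were the low Vec livers for both Cyp1a2 and Cyp2a5, and the same mice had the highest Pparg of their group (35.9 and 32.1 CPM against 16.4 to 20.1 in the others). This match was noticed after the values were seen and was not tested. In Vec+BBR, mice 1 and 5 had the highest Pparg (34.8 and 38.3 CPM) and also the highest Cyp2a5 of their group.

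Por measured 859.9, 1198, 615, 1347 and 870.5 CPM in Vec and 435, 529.7, 504, 537 and 537 CPM in Vec+BBR. All treated livers lay below all Vec livers, and the treated values were also closer together (SD 43.4 against 292 CPM). Over all tested genes, too, Vec+BBR livers were more alike within their group (median Spearman correlation 0.9845 to 0.991) than Vec livers (0.9786 to 0.9815). Por was 1.92-fold lower (log2 fold change -0.94 ± 0.17, edgeR adjusted p = 0.00114, exact permutation p = 0.00794, adjusted 0.0423).

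Cyp2a4, the near-copy of Cyp2a5, had its values on the other side. It measured 26.4, 52.9, 154, 38.1 and 53.4 CPM in Vec and 97.6, 134, 122, 115 and 128 CPM in Vec+BBR. All treated livers lay above 4 of the Vec livers and below Vec mouse 3, which at 154 CPM was higher than any other of the 20 livers. The log2 fold change was 0.88 ± 0.30 and missed the threshold (edgeR adjusted p = 0.0534, exact permutation p = 0.0476, adjusted 0.12). Without Vec mouse 3 the log2 fold change was 1.47 with edgeR adjusted p = 2.26e-05, and over all alternatives the adjusted p ranged from 2.26e-05 to 0.151. The share of Cyp2a4 in the sum of Cyp2a4 and Cyp2a5 was 1.04%, 1.75%, 12.8%, 1.16% and 3.24% in Vec and 7.97%, 12.4%, 18%, 19.4% and 11.3% in Vec+BBR; this share was examined after the values were seen and was not tested. The sum itself followed its abundant member, at -1.32 ± 0.27 on the log2 scale (edgeR adjusted p = 0.00292).

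**Figure D2:**
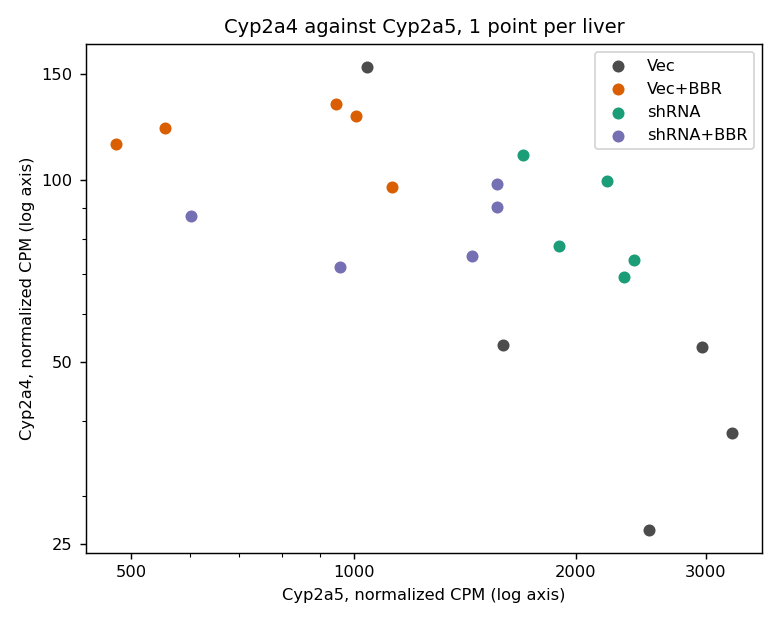
Cyp2a4 (vertical) against Cyp2a5 (horizontal) in normalized CPM on log axes, 1 point per liver, coloured by group. The 5 Vec+BBR livers lie at 97.6 to 134 CPM of Cyp2a4 and 477 to 1127 CPM of Cyp2a5, and 4 of the 5 Vec livers lie at 26.4 to 53.4 CPM of Cyp2a4, with Vec mouse 3 apart at 154 CPM.

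The 3 Cyp2b genes had log2 fold changes of differing sign, none of which passed. Cyp2b10, the standard readout of CAR activation, measured 95.1, 58.4, 67.1, 112 and 58.7 CPM in Vec and 48.2, 33.5, 56.4, 48.7 and 51.9 CPM in Vec+BBR. The groups did not overlap, but the log2 fold change of -0.71 ± 0.26 missed the threshold in the edgeR fit (adjusted p = 0.0688) while the exact permutation test gave p = 0.00794 (adjusted 0.0423). Over the alternatives the adjusted p of Cyp2b10 ran from 0.034 to 0.175, and without Vec mouse 5 it was 0.0489.

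Cyp2b9 measured 476, 512, 443, 579 and 527 CPM in Vec and 674, 598, 703, 578 and 606 CPM in Vec+BBR. The treated livers lay above 4 Vec livers, with mice 4 of the 2 groups at 579 and 578 CPM (log2 fold change 0.32 ± 0.12, edgeR adjusted p = 0.0663, range over the alternatives 0.0182 to 0.149, 0.0486 without Vec mouse 4). Cyp2b13 ran from 105 to 410.3 CPM in Vec (median 298) and from 25.5 to 314 CPM in Vec+BBR (median 155), with a log2 fold change of -0.73 ± 0.57 that its spread left far from the threshold (edgeR adjusted p = 0.424). Summed over the 3 genes the level hardly differed, at 841 ± 176 CPM in Vec and 834 ± 174 CPM in Vec+BBR (SD, n = 5, log2 fold change -0.02 ± 0.20).

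Of the receptors, Nr1i3 was the one with the larger difference in this comparison. It measured 114, 131, 89.3, 131 and 124 CPM in Vec and 109.5, 72.5, 99.3, 90.8 and 88 CPM in Vec+BBR, with overlapping ranges and a log2 fold change of -0.36 ± 0.17 that did not pass (edgeR adjusted p = 0.156). Nr1i2 was within 67.9 to 119.5 CPM in Vec and 82.5 to 110.2 in Vec+BBR (log2 fold change 0.03 ± 0.14, adjusted p = 0.903). Ahr was within 14.1 to 30.7 CPM in Vec and 18.6 to 31.3 in Vec+BBR (0.21 ± 0.18, adjusted p = 0.481).

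**Figure D3:**
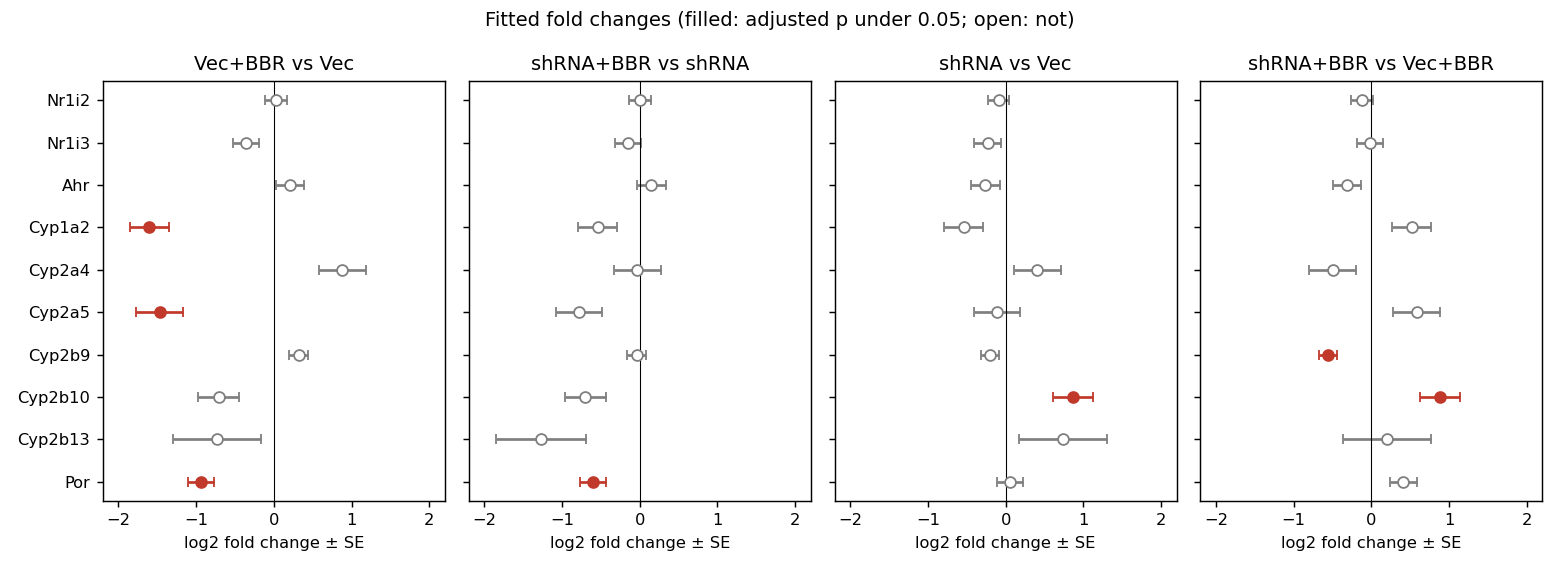
Fitted log2 fold changes (points) with their standard errors (bars) for the 10 genes in the 4 pairwise comparisons, filled where the edgeR adjusted p was under 0.05. Cyp1a2, Cyp2a5 and Por are called lower with BBR in Vec mice, Por alone in knockdown mice, Cyp2b10 is called higher in both knockdown comparisons, and Cyp2b9 lower in the one under BBR.

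BBR in knockdown mice (shRNA+BBR vs shRNA) was the companion comparison. Here 1 of the 10 genes was called, Por, which fell, a share no larger than that of all genes. The background was 15.7% of all genes called, 8.37% higher and 7.28% lower. Por measured 960.4, 1032, 994, 1056 and 1071 CPM in shRNA and 754, 652, 514, 549 and 907 CPM in shRNA+BBR, with no overlap. It was 1.51-fold lower (log2 fold change -0.60 ± 0.17, edgeR adjusted p = 0.0239, exact permutation p = 0.00794, adjusted 0.0423). The call was lost on leaving out shRNA+BBR mouse 2, 3 or 4, with log2 fold changes of -0.59, -0.51 and -0.53 and adjusted p of 0.051, 0.0786 and 0.0599.

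Cyp1a2 and Cyp2a5 did not overlap between these groups either, yet neither passed. Cyp1a2 measured 579.9, 594, 704, 712 and 652 CPM in shRNA and 517, 552, 344, 316 and 498 CPM in shRNA+BBR (log2 fold change -0.54 ± 0.25, edgeR adjusted p = 0.129). Cyp2a5 measured 1695, 1897, 2205, 2401 and 2327 CPM in shRNA and 1563, 1448, 957, 602 and 1562 CPM in shRNA+BBR (-0.78 ± 0.30, adjusted p = 0.0745, range over the alternatives 0.0317 to 0.18). The exact permutation test gave p = 0.00794 for each (adjusted 0.0423). Groups that did not overlap were thus found for 3 of the 10 genes and for 11.4% of all genes.

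Cyp2b10 measured 116, 127, 147, 176 and 151 CPM in shRNA and 88.8, 57.6, 50.4, 72.1 and 172 CPM in shRNA+BBR. Mouse 5 of shRNA+BBR stood inside the untreated range, and the other 4 livers lay below it (log2 fold change -0.70 ± 0.26, edgeR adjusted p = 0.0694). Without that mouse the log2 fold change was -1.09 with adjusted p = 0.00306, and over the alternatives the adjusted p ranged from 0.00306 to 0.185. The same mouse had the lowest Pparg of its group, 7.19 CPM, a value inside the range of the shRNA livers. That was noticed after the values were seen and was not tested. Cyp2b13 was 158 to 734 CPM in shRNA and 75.9 to 271 CPM in shRNA+BBR (-1.27 ± 0.58, adjusted p = 0.129). Cyp2a4 was 69.2 to 110 CPM in shRNA and 71.8 to 98.5 CPM in shRNA+BBR (-0.03 ± 0.30, adjusted p = 0.962), and Cyp2b9, Nr1i2, Nr1i3 and Ahr had log2 fold changes of -0.04, 0.00, -0.15 and 0.15, none of which passed.

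Whether the BBR difference depended on the knockdown was tested as the difference of the 2 BBR effects. None of the 10 genes passed, 3 had an unadjusted p under 0.05, and DESeq2, limma-voom and limma-trend also called 0 of the 10. Among all genes 0.146% were called. The 3 were Cyp1a2, with a difference of 1.06 ± 0.35 on the log2 scale (edgeR adjusted p = 0.135), Cyp2b9 (-0.36 ± 0.16, 0.244) and Cyp2a4 (-0.90 ± 0.43, 0.263). For Cyp1a2 the adjusted p ran from 0.0591 to 0.234 over the alternatives. For Cyp2a4 the difference was -1.50 with adjusted p = 0.0156 without Vec mouse 3, the single mouse whose removal gave a call. For the summed Cyp2a4 and Cyp2a5 it was 0.59 ± 0.38 and for the summed Cyp2b genes -0.52 ± 0.29 (edgeR adjusted p = 0.403 and 0.328).

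The next question was what the knockdown did without the drug (shRNA vs Vec). Of the 10 genes 1 was called, Cyp2b10, which rose, a count near the background of 13.2% of all genes called, 5.28% higher and 7.91% lower. Cyp2b10 was 116 to 176 CPM in the shRNA livers and 58.4 to 112 CPM in the Vec livers, with no overlap, which held for 1 of the 10 genes and for 8.96% of all genes. It was 1.83-fold higher (log2 fold change 0.87 ± 0.26, edgeR adjusted p = 0.0315, exact permutation p = 0.00794, adjusted 0.0423). The call was close to the threshold. It was lost on leaving out shRNA mouse 3, 4 or 5 or Vec mouse 2, 3 or 5, with adjusted p from 0.0516 to 0.0827 and log2 fold changes from 0.78 to 0.87.

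The other 9 did not pass. Cyp1a2 was 579.9 to 712 CPM in shRNA livers, between the high and the low Vec livers (log2 fold change -0.54 ± 0.25, edgeR adjusted p = 0.156). Cyp2a5 (-0.11 ± 0.29) and Por (0.06 ± 0.17) were level with Vec in the mean but far less spread, with the highest liver 1.42 and 1.12 times the lowest in shRNA against 3.12 and 2.19 times in Vec. Over all tested genes, shRNA livers were likewise more alike within their group (median Spearman correlation 0.9887 to 0.99) than Vec livers (0.9786 to 0.9815). Cyp2a4 differed by 0.41 ± 0.30 on the log2 scale without passing (edgeR adjusted p = 0.393), which was 1.01 with adjusted p = 0.00105 without Vec mouse 3 (range over the alternatives 0.00105 to 0.678). Cyp2b13 was 0.74 ± 0.57, Cyp2b9 was -0.20 ± 0.12, Nr1i3 was -0.23 ± 0.17, Ahr was -0.26 ± 0.19 and Nr1i2 was -0.09 ± 0.14. Summed, Cyp2a4 and Cyp2a5 differed by -0.09 ± 0.27 and the 3 Cyp2b genes by 0.27 ± 0.20 (edgeR adjusted p = 0.855 and 0.408).

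Under BBR, the knockdown comparison (shRNA+BBR vs Vec+BBR) called Cyp2b10 higher and Cyp2b9 lower, against 8.13% of all genes, 3.31% higher and 4.82% lower. Cyp2b9 was 532, 335, 348, 454 and 475 CPM in shRNA+BBR and 578 to 703 CPM in Vec+BBR, with no overlap, which held for 1 of the 10 genes and for 8.48% of all genes. It was 1.47-fold lower (log2 fold change -0.56 ± 0.12, edgeR adjusted p = 0.00592, exact permutation p = 0.00794, adjusted 0.0423), and every alternative kept the call. The summed Cyp2b genes did not pass (log2 fold change -0.25 ± 0.2, edgeR adjusted p = 0.473). Cyp2b10 was 50.4 to 172 CPM against 33.5 to 56.4 CPM, and 4 of 5 shRNA+BBR livers lay above all Vec+BBR livers. Its fold was 1.85 (log2 fold change 0.88 ± 0.26, edgeR adjusted p = 0.0403), but the exact permutation test did not pass after adjustment (p = 0.0317, adjusted 0.109). Leaving out shRNA+BBR mouse 5 brought the log2 fold change to 0.49 with adjusted p = 0.144, and leaving out shRNA+BBR mouse 1 or any of the Vec+BBR mice also ended the call, with adjusted p from 0.0524 to 0.102.

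Cyp1a2 (0.52 ± 0.25), Cyp2a5 (0.58 ± 0.30) and Por (0.41 ± 0.17) all had positive log2 fold changes here that did not pass (edgeR adjusted p = 0.196, 0.232 and 0.135). Cyp2a4 was 71.8 to 98.5 CPM against 97.6 to 134 CPM, with 4 of 5 shRNA+BBR livers below all Vec+BBR livers (-0.50 ± 0.30, adjusted p = 0.325, range over the alternatives 0.0179 to 0.482). The sum of Cyp2a4 and Cyp2a5 did not pass either (0.49 ± 0.27, edgeR adjusted p = 0.265). The receptors had log2 fold changes of -0.12 ± 0.14 for Nr1i2, -0.02 ± 0.17 for Nr1i3 and -0.32 ± 0.18 for Ahr. The comparisons above share groups with each other, so their values are set side by side only.

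The make-up of the Cyp2b sum therefore differed from liver to liver. Cyp2b9 held a mean of 61.7% ± 9.52 of the 3-gene sum in Vec, 77.4% ± 10.2 in Vec+BBR, 46.4% ± 13.2 in shRNA and 63.2% ± 6.79 in shRNA+BBR (SD, n = 5). Cyp2b10 held 9.45% ± 2.91, 5.9% ± 1.51, 14.6% ± 2.43 and 12.3% ± 4.31 in the same order. Cyp2b13 held between 3.73% and 55.8% of the sum over the 20 livers. These shares were described after the values had been seen and were not tested.

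**Figure D4:**
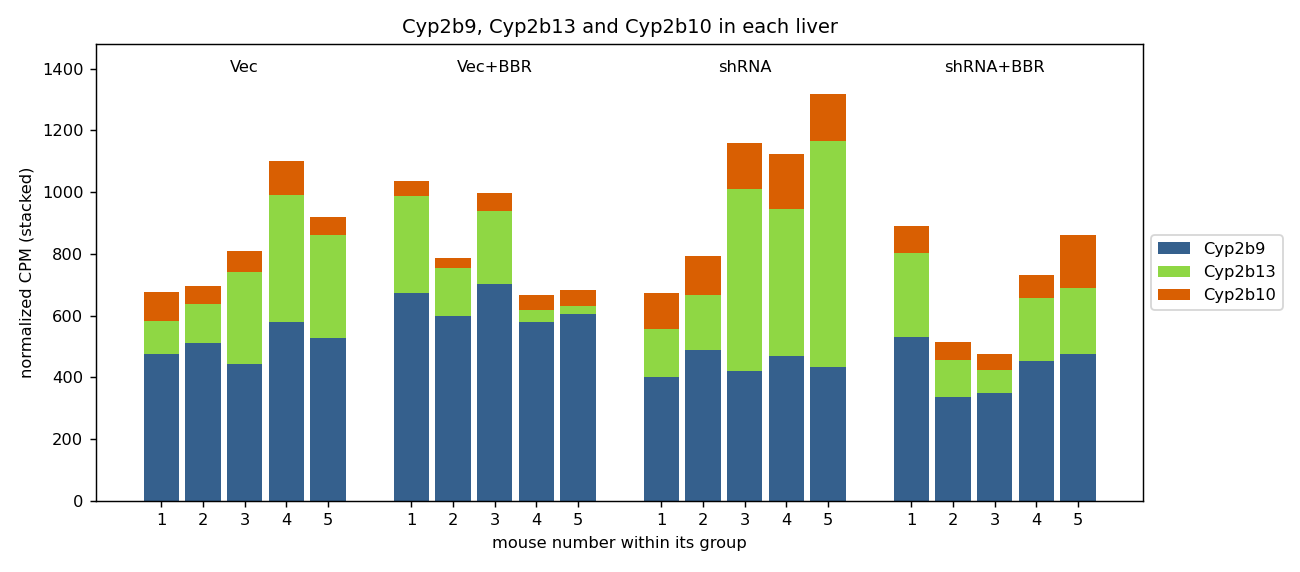
Normalized CPM of Cyp2b9, Cyp2b13 and Cyp2b10 stacked for each of the 20 livers, by mouse number within the group. The Cyp2b13 part ranges from 25.5 CPM in Vec+BBR mouse 5 to 734 CPM in shRNA mouse 5, whereas the Cyp2b9 part stays between 335 and 703 CPM.

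The 10 genes differed widely in how much they varied between mice of a group. Cyp2b13 had a biological coefficient of variation of 0.607, above 98.9% of the genes tested, and its highest liver was 28.8 times its lowest. Cyp2b9, whose upstream stretch shown above differs from that of Cyp2b13 at 2 of 250 bases, had a coefficient of 0.137, above 43.2% of genes, and a 2.1-fold range. Cyp2a4 (0.331), Cyp2a5 (0.324), Cyp2b10 (0.287) and Cyp1a2 (0.273) were each above 87% of genes or more. Among the receptors the coefficient was 0.157 for Nr1i2, 0.19 for Nr1i3 and 0.204 for Ahr, and Por had 0.192.

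The genes whose level was most like each member over the 20 livers are given by Spearman correlation of log2 CPM, as a description over livers that share 4 groups. Genes outside the 10 were picked as the highest of all tested genes, and none of these correlations was tested. Cyp1a2 and Cyp2a5 were close to each other (rho 0.96) and to Por (0.84 and 0.88), and rho between Cyp1a2 and Cyp2a5 was 0.90 when the group means were removed. Outside the 10 genes, Cyp2a5 was most like Serpina1d, Gstm7 and Hpd (0.97 each), Cyp1a2 most like Rdh16f2, Magix and Pla1a (0.95 each), and Por most like Aldh1l1 (0.95), Cpn2 (0.95) and Sardh (0.94). Cyp2b10 was most like Myom3 (0.92), Slc25a28 and Rnf10 (0.91 each). Cyp2a4 was most like Rufy4 (0.85), Arhgef3 (0.83) and Fez2 (0.81), and its rho with Cyp2a5 was -0.69. Cyp2b9 was most like Cyb5d2 (0.89), Tbc1d9b and Pisd (0.88 each), and Cyp2b13 most like Elp4 (0.81), Hacl1 (0.78) and Ormdl3 (0.74). Of the receptors, Nr1i2 was most like Dhps (0.82), Xrcc3 (0.80) and Pank1 (0.79), Nr1i3 most like Gcdh (0.83), Sord and Sap130 (0.81 each), and Ahr most like Sema6d (0.83), Zfp367 and Ptprm (0.82 each). With group means removed, the closest gene changed for all 10, and was Dhrs7 for Nr1i2 (0.88), Pcp4l1 for Nr1i3 (0.93), Ubr1 for Ahr (0.88), Acmsd for Cyp1a2 (0.89), Creg1 for Cyp2a5 (0.90), Plekhg1 for Cyp2a4 (0.81), Ints5 for Cyp2b9 (0.85), Prox2 for Cyp2b10 (0.80), Ercc1 for Cyp2b13 (0.81) and Gpld1 for Por (0.95).

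The wider set of CAR and PXR target genes, without the 10, changed in both directions. For this list and those below, the shares of all genes called were 15.5% in Vec+BBR vs Vec and 15.7% in shRNA+BBR vs shRNA. They were 13.2% in shRNA vs Vec and 8.13% in shRNA+BBR vs Vec+BBR. Of 41 tested, 8 rose and 14 fell with BBR in Vec mice (median log2 fold change -0.20, against 0.00 over all genes), and 7 rose and 14 fell with BBR in knockdown mice (median -0.20, all genes 0.01). The largest falls in Vec mice were in the Cyp2c epoxygenases, whose members are also near-copies of each other: Cyp2c54 went from 851 ± 349 to 64.4 ± 28.6 CPM (log2 fold change -3.72 ± 0.42, edgeR adjusted p = 2.23e-05), Cyp2c50 fell by 2.51 and Cyp2c37 by 2.40 on the log2 scale. Sult1e1, the oestrogen sulfotransferase, fell by 1.63. Cyp3a11, the best-known PXR target and named here after its values were seen, did not pass in any comparison (log2 fold changes -0.32, -0.20, 0.12 and 0.24 in Vec+BBR vs Vec, shRNA+BBR vs shRNA, shRNA vs Vec and shRNA+BBR vs Vec+BBR). With the knockdown alone 3 of the 41 rose and 6 fell, among them the hepatic uptake transporter Slco1a4 (1.15 ± 0.26, adjusted p = 0.00542), the glutathione transferase Gsta1 (1.16 ± 0.30, 0.0137), the glucuronosyltransferase Ugt1a9 (-1.35 ± 0.22, 0.000325) and Cyp2c38 (-0.73 ± 0.21, 0.0255). Under BBR the knockdown comparison had 8 higher and 5 lower, with Cyp2c54 (1.77 ± 0.39), Slco1a4 (1.63 ± 0.26) and Cyp2c50 (1.32 ± 0.25) higher and Ugt1a9 (-1.34 ± 0.22) lower.

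AhR target genes other than Cyp1a2 were called in both directions. Of 14 tested, 2 rose and 2 fell with BBR in Vec mice (median log2 fold change 0.15). The purine oxidase Xdh fell with BBR in Vec and in knockdown mice (by 0.44 and 0.51 on the log2 scale), and Ugdh (0.56 ± 0.14) and the fatty acid transporter Cd36 (0.55 ± 0.10) rose in Vec mice. Cyp1b1, Tiparp and Nqo1, common markers of AhR activation, had log2 fold changes of 0.19, 0.26 and 0.27 with BBR in Vec mice, none of which passed, and were named after their values were seen. With the knockdown alone 1 of the 14 was called, Gsta1, which is also in the CAR and PXR list.

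Partner genes of the receptors were tested as lists as well. Of 7 AhR complex genes, 1 rose with BBR in Vec mice and 2 in knockdown mice (all genes called 15.5% and 15.7%). Hsp90aa1, a chaperone that holds AhR and CAR in the cytoplasm, rose in both (0.69 ± 0.20 and 0.87 ± 0.21, edgeR adjusted p = 0.026 and 0.0113). Of 27 partners and regulators of CAR and PXR, 1 rose and 1 fell with BBR in Vec mice and 2 rose and 5 fell in knockdown mice. The share called in Vec mice was below that of all genes. Egfr, whose signal restrains CAR, fell in both (-0.92 ± 0.22 and -0.73 ± 0.22, adjusted p = 0.00843 and 0.0327). Rxra, the shared partner, named after its values were seen, had log2 fold changes of -0.05 in Vec mice (adjusted p = 0.862) and -0.43 in knockdown mice (0.0441).

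Por is 1 part of the electron and haem supply of P450s, and the other parts were tested as a list. Of 18 such genes 3 rose and 1 fell with BBR in Vec mice (median log2 fold change -0.08, 7 of 18 positive), and 4 rose in knockdown mice with 0 called lower (0 at an unadjusted p under 0.05). Cyb5r1 (0.45 ± 0.15), Uros (0.41 ± 0.12) and Cyb5b (0.37 ± 0.12) were the genes that rose in Vec mice, and the mitochondrial ferredoxin Fdx1 fell by 0.35. With the knockdown alone 6 fell, led by the biliverdin reductase Blvrb (-0.86 ± 0.16, edgeR adjusted p = 0.00132), Fdxr and Uros (-0.57 each) and Alad (-0.36 ± 0.11), and 0 rose (0 at an unadjusted p under 0.05). Under BBR 4 were lower in knockdown mice, which were Uros, Cyb5r1 (-0.59 each), Cyb5b (-0.53) and Fech (-0.44). Alas1, the rate-limiting haem enzyme and a CAR target, also named after its values were seen, passed in no comparison.

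Of the other Cyp1a, Cyp2a and Cyp2b genes, 3 of 5 were tested. Cyp2a12 and Cyp2a22 fell with BBR in Vec mice, from 1261 ± 229 to 913 ± 113 CPM and from 275 ± 85.3 to 168 ± 38 CPM (log2 fold changes -0.47 ± 0.11 and -0.71 ± 0.17, edgeR adjusted p = 0.00936 and 0.00668). Of the Cyp2a genes measured in these livers, Cyp2a4 alone had a positive log2 fold change in that comparison.

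Pericentral, periportal and sex-biased genes were tested as lists in the same comparisons. Of 21 pericentral genes 15 fell with BBR in Vec mice (median log2 fold change -0.68), led by Cyp2c37 (-2.40 ± 0.36), the ornithine aminotransferase Oat (-2.02 ± 0.33), Cyp2c29 (-1.61 ± 0.25) and the glutamate transporter Slc1a2 (-1.58 ± 0.28), while 2 rose and 4 fell in knockdown mice (median -0.11). Cyp2c37 and Cyp2c29 are also in the CAR and PXR list, so the lists are not separate sets of genes. Of 18 periportal genes 9 fell and 1 rose in Vec mice (median -0.52), among them Igfbp2 (-2.81 ± 0.48) and the urea cycle genes Cps1 (-1.10 ± 0.23) and Ass1 (-1.08 ± 0.20), and in knockdown mice 3 fell and 0 rose (median -0.31, 1 higher at an unadjusted p under 0.05). With the knockdown alone 9 pericentral genes fell (median -0.53), led by Cyp2e1 (-1.14 ± 0.18), Rhbg (-1.02 ± 0.22) and the Wnt feedback inhibitor Notum (-0.94 ± 0.16), whereas no periportal gene was called (2 at an unadjusted p under 0.05). The part of zonation in the values of Cyp1a2 and Cyp2a5 was not tested.

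Of 27 female-biased genes other than the members, 9 fell and 4 rose with BBR in Vec mice (median log2 fold change -1.06), and 11 fell in knockdown mice (median -0.94). Cyp3a41a (-6.01 ± 0.84), Sult2a7 (-5.51 ± 0.62) and Sult2a1 (-3.70 ± 0.84) were among those that fell in Vec mice. Of the members that are higher in females, Cyp2a4 and Cyp2b9 had the positive log2 fold changes given above. That of Cyp2b13 was negative (-0.73 ± 0.57), and none of these members passed. With the knockdown alone 6 female-biased genes rose (median 0.52), among them A1bg (1.80 ± 0.57), the steroid hydroxylase Cyp17a1 (0.79 ± 0.15), Abcd2 (0.65 ± 0.21) and Cyp2c39 (0.60 ± 0.18). Of 26 male-biased genes 9 fell in Vec+BBR vs Vec, among them Mup1 (-1.99 ± 0.55), Mup12 (-1.59 ± 0.46), Mup3 (-1.56 ± 0.37) and the oxysterol hydroxylase Cyp7b1 (-1.34 ± 0.20), and 8 fell in shRNA vs Vec (medians -0.69 and -0.60). With BBR in knockdown mice 5 male-biased genes rose, among them Mup21 and Cyp4a12b (1.62 each), and 6 fell (median -0.12). The Mup, Sult2a and Cyp3a41 genes are families of near-copies, whose reads may be divided between them.

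Clock genes were called in all 4 comparisons. As background, the PAR bZIP factors of the clock are known to drive Por, Cyp2a4, Cyp2a5 and Nr1i3 in mouse liver. Of 18 clock genes 2 rose and 2 fell with the knockdown alone, against 13.2% of all genes called. Under BBR 3 rose and 2 fell, against 8.13% of all genes. Dbp, a PAR bZIP factor, was 55.7 ± 32.1 CPM in Vec and 22 ± 7.59 in shRNA (log2 fold change -1.34 ± 0.34, edgeR adjusted p = 0.012) and 50.2 ± 21.5 in Vec+BBR and 19.7 ± 5.52 in shRNA+BBR (-1.35 ± 0.34, 0.0176). Nr1d1 fell in both (-1.07 ± 0.31 and -1.67 ± 0.31) and Arntl rose in both (1.10 ± 0.31 and 1.57 ± 0.32). Hour of death was not given in the sources used here, and its part in the knockdown comparisons was not tested. With BBR, 2 of the 18 clock genes fell in Vec mice, a smaller share than the 15.5% of all genes called. These were Cry1 (-0.57 ± 0.15) and Per3 (-0.48 ± 0.15). In knockdown mice 1 rose, Clock (0.49 ± 0.12), and 4 fell, against 15.7% of all genes called. Among the 4 were Per1 (-0.57 ± 0.15), Per3 (-0.54 ± 0.15) and Cry2 (-0.53 ± 0.17). In the BBR comparisons Dbp did not pass (-0.15 ± 0.33 and -0.16 ± 0.34).

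**Figure D5:**
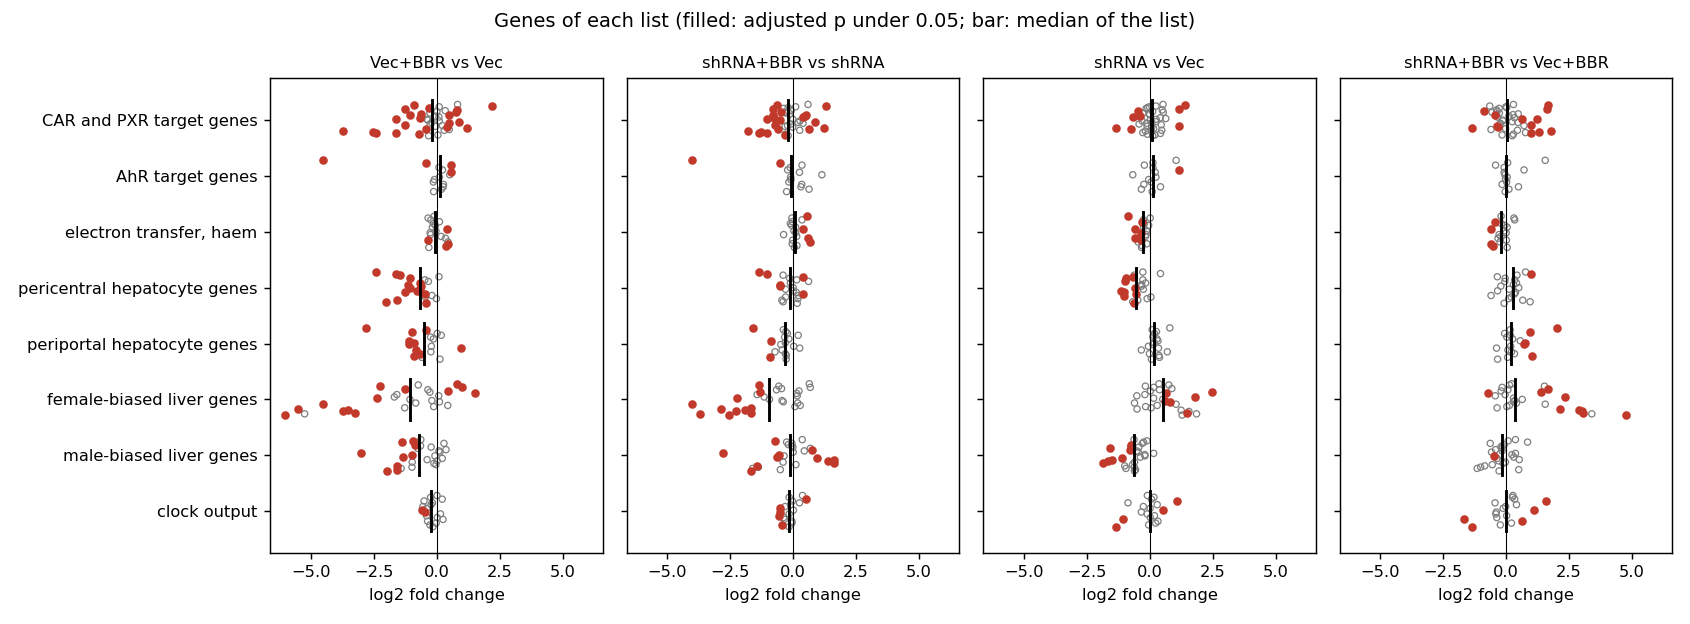
Log2 fold changes of every tested gene of 8 gene lists in the 4 pairwise comparisons, 1 point per gene, filled where the edgeR adjusted p was under 0.05, with the median of the list as a vertical bar and the 10 genes left out. In Vec+BBR vs Vec the medians of the pericentral (-0.68), periportal (-0.52), female-biased (-1.06) and male-biased (-0.69) lists lie left of 0, and that of the AhR targets at 0.15.

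Cell type markers were called in the BBR comparison too. In Vec+BBR vs Vec, 4 of 8 hepatocyte markers were lower and the summed level of the 8 ran from 90309 to 125072 CPM against 127654 to 156042 in Vec. Of the 8, Cps1 and Ass1 are also in the periportal list and Cyp2e1 in the pericentral list, so these lists share genes. The summed level of 6 cholangiocyte markers was 50.3 to 96.8 CPM against 24.1 to 45.4 in Vec, that of 6 stellate cell markers 271 to 301 against 162 to 263, and that of 6 endothelial markers 96.8 to 131 against 77.1 to 102. Of these lists 1, 2 and 3 genes were called higher. Of 7 Kupffer cell and macrophage markers 1 was higher and 2 were lower, with sums of 129 to 205 CPM against 98.3 to 266.

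In shRNA+BBR the hepatocyte sum was 107153 to 121840 CPM against 114724 to 130630 in shRNA, with 1 of 8 called lower, and the cholangiocyte sum 31 to 87.9 against 25.9 to 34.4. With the knockdown alone 3 endothelial markers were higher, with sums of 110 to 138 CPM in shRNA. Erythroid genes summed to 282 to 1578 CPM, pancreas genes to 2.31 to 5.73 CPM and small intestine genes to 43.6 to 101 CPM over the 20 livers, and the kidney gene Slc12a1 had no count in any. The part of cell make-up in the lower Cyp1a2, Cyp2a5 and Por was not tested.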

How the data were processed

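Liver RNA-seq of 20 mice was analysed, 5 per group as labelled; the series describes the mice as separate biological replicates. The authors deposited, for each library, expected counts per gene, which need not be whole, and FPKM. The submitters' processing notes name mm10; aligner and counter are not given in the sources used here, nor is strand. Expected counts were rounded and all 20 livers were fitted together with edgeR 4.0.16 (R 4.3.3): filterByExpr (minimum count 10, total 15), TMM scaling, quasi-likelihood tests without a block, and Benjamini-Hochberg adjustment over 12342 genes at 0.05. The common biological coefficient of variation was 0.177 and the prior degrees of freedom 4.88. CPM are TMM-normalized. FPKM were used only to order genes by level and in an alternative. Single genes and paralog sums (12 features in 4 comparisons, 48 tests) were also tested by two-sided exact permutation over 252 assignments of log2(CPM + 0.5), where the smallest p is 0.00794.

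Library totals were 17432904 to 25024099 counts and mitochondrial genes (13 listed) took 9.14% to 16.2%. The lowest count of any of the 10 genes in a library was 231 (Ahr), so counting error was small beside the spread between mice. The scripts were tested on simulated counts. Members and lists were chosen with earlier results of these data known. Beyond the 10 genes, each list and comparison names up to 4 called genes with the largest log2 fold change and a mean count of at least 50, and the 3 genes most alike to each member are given. Alternatives were DESeq2 1.42.0, limma 3.58.1 (voom, and trend on log2(FPKM + 0.1)), other scalings and filters, only the groups compared, summed paralogs, a replicate block and leaving out each mouse. Same-numbered mice correlated above 0.1 in 3 of 5, 1 of 5, 0 and 0 pairs of the compared groups, so numbers were not taken to pair mice. Dose, age and fasting come from the study's methods. Figures and tables were made with Python 3.11.15, numpy 2.4.6, pandas 2.3.3 and scipy 1.17.1. Some genes that this rule names are not reported here.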

Additional observations from a re-analysis of the deposited data

Results flagged for a closer look

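Cyp2a4 in Vec mouse 3 lay far from the other Vec livers, at 154 CPM against 26.4 to 53.4 CPM, with a gap of 0.788 of the group's range. It was 1 of 48 groups of 5 livers examined, where chance flags about 1 in 20 (2.4 of 48). The same liver had the lowest Cyp2a5 (1044 CPM) and Por (615 CPM) of the Vec group and the highest Pparg (35.9 CPM). Their relation to its Cyp2a4 value was not tested.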

How the results depend on the processing

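Over 50 results (10 genes in 5 comparisons) and 1115 alternative values, 1015 kept direction and side of the threshold, 18 lost a call, 25 gained one, 57 changed sign with no call, and 0 called values changed sign. Cyp1a2, Cyp2a5 and Por in Vec+BBR vs Vec and Cyp2b9 in shRNA+BBR vs Vec+BBR kept their calls in every alternative run; the cause of the other changes was not tested. In Vec+BBR vs Vec, 3 of the 10 genes were called, against 5 by each of DESeq2, limma-trend and limma-voom, and 3 to 4 on leaving out 1 mouse. DESeq2 added Cyp2b9 as higher and Cyp2b10 as lower, whereas limma-trend and limma-voom added Cyp2a4 and Cyp2b9, both as higher. In shRNA vs Vec, 1 was called, against 2 by limma-voom and 0 to 1 on leaving out 1 mouse. In shRNA+BBR vs Vec+BBR, 2 were called, against 1 by limma-trend and 1 to 2 on leaving out 1 mouse. In shRNA+BBR vs shRNA, 1 was called, against 3 by DESeq2, 2 by limma-trend, 3 by limma-voom, 3 with only the groups compared, and 0 to 2 on leaving out 1 mouse. For the difference of the BBR effects 0 were called, and 0 to 1 on leaving out 1 mouse (1 without Vec mouse 3).

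With a replicate block, 4, 1, 2, 2 and 0 genes were called in Vec+BBR vs Vec, shRNA vs Vec, shRNA+BBR vs Vec+BBR, shRNA+BBR vs shRNA and the difference; the added calls were Cyp2a4 (log2 fold change 1.03, edgeR adjusted p = 0.029) and, in knockdown mice, Cyp2b10 (-0.77, 0.0417). Correlations of same-numbered mice did not exceed 0.1 in every pair of any comparison (3 of 5 for shRNA and shRNA+BBR), so the numbers were not taken to pair the mice, and the block changed no other call of the 10 genes.

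The exact permutation tests passed for 9 of 48 with each pseudocount (0.1, 0.5 and 1). Limma-trend on FPKM moved the median of all genes to 0.128 in Vec+BBR vs Vec and to 0.105 in shRNA vs Vec, with 1629 higher and 388 lower calls against 936 and 972, and 1066 and 488 against 652 and 976. In shRNA+BBR vs Vec+BBR upper-quartile scaling gave 552 higher and 486 lower against 409 and 595. Over all genes the difference of the BBR effects was called for 18 genes, and for 5 to 338 across alternatives (338 by DESeq2, 154 by limma-voom). Counts of all genes called ranged from 1178 to 2395, 1015 to 2284, 538 to 1460 and 661 to 2527 in Vec+BBR vs Vec, shRNA vs Vec, shRNA+BBR vs Vec+BBR and shRNA+BBR vs shRNA. Summing paralogs gave no count of the 10 genes. Sharing of reads between near-copies limits the single-gene values of the Cyp2a and Cyp2b genes.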
